A study of Mus musculus with 2 samples.

Results

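Cirbp and Rbm3, the genes of 2 RNA-binding proteins that accumulate when mammalian cells are mildly cooled, are described here together with 8 genes of splicing control: the SR proteins Srsf5, Srsf2, Srsf3 and Srsf7, the SR protein kinases Clk1 and Clk4, and the splicing regulators Hnrnpdl and Tra2a. They are 10 of the 17087 genes in a count table of single mouse retinal cells, taken from it by symbol, and hold 160673 of its 60457747 UMIs (unique molecular identifiers, each counting 1 captured transcript). The 10 were chosen by measured values of these same cells: their ratios between the libraries, their levels by cell class and their correlation per cell with Cirbp. None of those values is therefore a test, and each is given as a description.

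The STZ library came from male mice made diabetic with streptozotocin (STZ), a toxin of the insulin-producing cells of the pancreas. STZ was given intraperitoneally at 55 mg/kg when the mice were 3 to 5 weeks old, blood glucose above 300 mg/dL defined diabetes, and the retinas were taken after 25 weeks of high glucose. The control library came from retinas labelled untreated and healthy, whose age the labels do not give. Both samples carry the strain label C57BL/6, and the protocol of the STZ injections names C57BL/6J. Each library pooled the cells of 3 retinas, and neither the number of mice behind them nor any vehicle injection of the controls is stated. With 1 library per group there is no replicate and no test, so a difference between the groups cannot be told apart from a difference between the 2 preparations, and the 95% intervals in brackets cover counting error only.

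Of the cells, 12393 belong to STZ, at 2062 UMIs in the median cell, and 7169 to control, at 3800. After filters on detected genes, mitochondrial UMIs and doublets, 8232 STZ and 5154 control cells remained, and 21 barcodes occurred in both libraries. The cells were clustered without the 10 genes and without related splicing genes. Clusters were named from marker genes, hence the ending -like, and 9 classes with at least 50 cells in each library were compared. Between 8 and 12 markers of each class were higher there than in the other classes, of 10 to 12 in its list. The 10 rod markers were found in every other class too, none at 0 UMIs, with summed levels of 1621 to 11063 CPM in STZ and 1264 to 14466 CPM in control. CPM values scale the UMIs of each class and library to a sum of 1000000. Depth differed most among endothelial-like cells, whose median cell had 950 UMIs in STZ and 3151 in control. Cluster 0, with 1759 STZ and 14 control cells, took no name and stands outside the classes.

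Cirbp and Rbm3 are small proteins with 1 RNA recognition motif and a glycine-rich tail. They bind messenger RNAs and influence their stability, translation and choice of polyadenylation site, and in mice Rbm3 has been tied to the upkeep of synapses under cooling. SR proteins bind exons through an RNA recognition motif and recruit the spliceosome through a domain rich in arginine and serine. The kinases Clk1 and Clk4 phosphorylate that domain, and their activity is known to respond to temperature in the range of body temperature. Hnrnpdl, an hnRNP protein, and Tra2a, an SR-like activator of exons, belong to the same layer of control. In the GENCODE M21 annotation of mm10, all 10 genes are protein coding and have at least 1 transcript annotated for nonsense-mediated decay and at least 1 with a retained intron. Of the 14855 protein-coding genes in the table, 20.6% have both kinds. UMIs from the 3′ end do not tell these transcripts apart, so no value below says which of them was made.

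The RefSeq promoter table (GRCm38.p6, the assembly of mm10), with 250 bases before and 50 after a transcription start, held 9 windows for 8 of the 10 genes, and had no entry for Rbm3 or Clk1. Of these, 4 are printed: the first Cirbp window (chr10:80167589-80167888, plus strand) as the gene with the highest median ratio, Srsf7 (chr17:80207256-80207555, minus strand) as the other window with the TCCCCGCC element, Srsf5 (chr12:80945249-80945548, plus strand) as the SR protein gene that was higher in STZ, and Tra2a (chr6:49264003-49264302, minus strand) as the gene that was lower. Capitals mark the GC box GGGCGG, the site type of Sp1, and the octamer TCCCCGCC, known from the mouse Cirbp promoter as a mild-cold element, each on either strand.
Cirbp: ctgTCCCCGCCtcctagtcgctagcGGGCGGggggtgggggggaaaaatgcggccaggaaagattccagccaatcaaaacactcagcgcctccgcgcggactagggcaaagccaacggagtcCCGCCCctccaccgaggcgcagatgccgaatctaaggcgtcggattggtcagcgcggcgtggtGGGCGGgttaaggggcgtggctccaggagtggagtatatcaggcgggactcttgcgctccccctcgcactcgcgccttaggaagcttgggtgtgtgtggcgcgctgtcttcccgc
Srsf7: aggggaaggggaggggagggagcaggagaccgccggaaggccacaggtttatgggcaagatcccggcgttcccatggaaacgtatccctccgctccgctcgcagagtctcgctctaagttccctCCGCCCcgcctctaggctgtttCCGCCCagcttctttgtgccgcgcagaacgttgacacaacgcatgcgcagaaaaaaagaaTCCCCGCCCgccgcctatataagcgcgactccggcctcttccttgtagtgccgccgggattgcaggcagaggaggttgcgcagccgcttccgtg
Srsf5: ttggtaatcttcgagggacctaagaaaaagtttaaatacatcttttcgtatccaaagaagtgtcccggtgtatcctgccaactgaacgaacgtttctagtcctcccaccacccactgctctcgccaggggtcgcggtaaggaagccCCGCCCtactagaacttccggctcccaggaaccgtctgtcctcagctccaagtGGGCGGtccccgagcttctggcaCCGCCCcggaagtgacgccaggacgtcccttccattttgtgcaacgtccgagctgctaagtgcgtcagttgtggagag
Tra2a: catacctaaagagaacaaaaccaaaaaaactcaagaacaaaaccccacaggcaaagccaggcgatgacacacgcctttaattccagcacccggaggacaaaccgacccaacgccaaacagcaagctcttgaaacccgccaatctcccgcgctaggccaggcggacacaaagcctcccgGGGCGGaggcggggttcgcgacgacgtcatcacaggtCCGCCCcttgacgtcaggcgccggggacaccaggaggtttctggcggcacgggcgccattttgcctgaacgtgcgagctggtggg
The octamer was in 2 of the 9 windows, those of Cirbp and Srsf7 shown above, and in 5.38% of all 32851 windows. In Srsf7 it overlaps a GC box on the opposite strand. A GC box was in 8 of the 9 windows, all but that of Srsf3, against 35.7% of all windows, and the windows of the 10 genes were richer in G and C, with a median of 65.7% against 52.7%. The paired heat shock motifs GAANNTTC and TTCNNGAA, which are in 7.86% and 8.52% of all windows, were in none of the 9. The 4 motifs were searched on both strands, and a match marks letters, not a site in use.

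Cirbp was higher in the STZ library in each of the 9 classes, by 2.79-fold in Müller glia-like cells to 5.34-fold in endothelial-like cells, with a median log2 ratio of 1.67. The gene lies at chr10:80165985-80172786 on the plus strand (mm10), and both RefSeq windows fall inside that span. Rod-like cells had 1026 CPM (976 to 1078) in STZ and 349.7 CPM (319 to 383) in control, a ratio of 2.93 (2.64 to 3.26). Cone-like cells had 597 CPM in STZ and 188 CPM in control, a ratio of 3.18 (2.94 to 3.46). Photoreceptors thus kept their order in both libraries, with rod-like above cone-like cells. Rod bipolar-like cells, the relay of rod signals, had 1122 CPM in STZ and 346 CPM in control, a ratio of 3.25 (3.05 to 3.46). Cone bipolar-like cells had 1004 CPM in STZ and 328 CPM in control, a ratio of 3.06 (2.87 to 3.27). Amacrine-like cells had the highest level in each library, 1179 CPM (1107 to 1255) in STZ and 408 CPM (326 to 505) in control, a ratio of 2.89 (2.31 to 3.65). The neuronal classes therefore differed little from each other in ratio, and their intervals overlap.

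Among the non-neuronal classes, Müller glia-like cells had 606 CPM of Cirbp in STZ and 217 CPM in control, a ratio of 2.79 (2.62 to 2.98). Pericyte or smooth muscle-like cells had 577 CPM in STZ and 142 CPM in control, a ratio of 4.07 (3.03 to 5.57), and pigment epithelium-like cells had 439 CPM in STZ and 127 CPM in control, a ratio of 3.45 (1.91 to 6.85) that rests on 12 control UMIs. Endothelial-like cells had 502 CPM in STZ and 94.0 CPM in control, a ratio of 5.34 (3.65 to 8.10) that rests on 29 control UMIs. In the same cells the summed rod markers were at 5373 CPM in STZ and 1682 CPM in control, and the median mitochondrial share was 12.3% in STZ and 5.50% in control. The part of these differences in the ratio was not tested. With cells thinned to 2000 UMIs, which left 80 STZ and 64 control endothelial-like cells, the ratio there was 6.00. It rests on few control UMIs, with a mean of 0.75 Cirbp UMIs per cell in STZ and 0.125 in control, and has no interval. Over the 9 classes the lowest Cirbp level in STZ, 439 CPM (369 to 519), lay above the highest in control, 408 CPM (326 to 505). The intervals of these levels overlap. The 10% of cells with most Cirbp held 21.7% to 40.9% of its UMIs in the STZ classes and 28.7% to 75% in the control classes. The 75% was in pigment epithelium-like cells, on 12 UMIs in 51 control cells. The next highest, 58.6%, was in endothelial-like cells, on 29 UMIs in 91 control cells. Such a share rises as UMIs per cell become few, so the libraries are not compared by it.

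**Figure D1:**
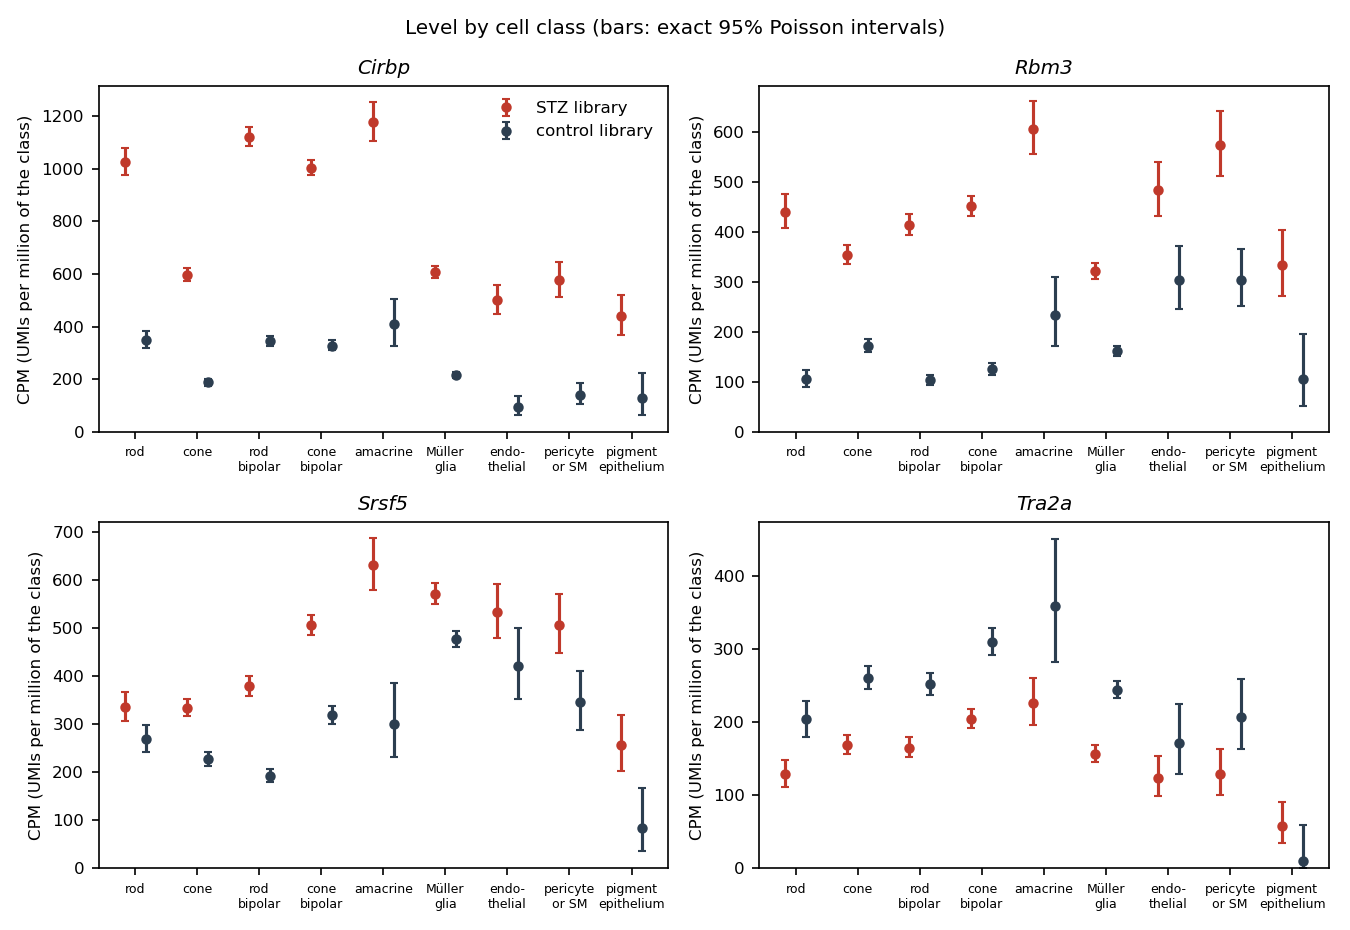
Levels of Cirbp, Rbm3, Srsf5 and Tra2a in CPM (vertical axes, each from 0) in the 9 cell classes, with the STZ library in red to the left of the control library in dark blue. Points are levels from summed UMIs and bars are exact 95% Poisson intervals. SM stands for smooth muscle. Cirbp in STZ lies between 439 and 1179 CPM, above the control values of 94.0 to 408 CPM, though the intervals at 439 and 408 CPM overlap.

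Rbm3 was likewise higher in the STZ library in each of the 9 classes, but its ratios differed more between classes than those of Cirbp, with a range of 1.59 to 4.17. The gene lies at chrX:8138975-8145880 on the minus strand. In rod-like cells Rbm3 was at 441 CPM (408 to 476) in STZ and 106 CPM (89.1 to 125) in control, a ratio of 4.17 (3.47 to 5.03). Rod bipolar-like cells had 415 CPM in STZ and 104 CPM in control, a ratio of 3.99 (3.58 to 4.46), and cone bipolar-like cells had 453 CPM in STZ and 125 CPM in control, a ratio of 3.61 (3.25 to 4.01). These 3 classes had ratios whose intervals lie above those of cone-like and Müller glia-like cells. Cone-like cells had 355 CPM in STZ and 173 CPM in control, a ratio of 2.05 (1.88 to 2.25). Müller glia-like cells had 321 CPM in STZ and 162 CPM in control, a ratio of 1.98 (1.83 to 2.14). Amacrine-like cells had 607 CPM in STZ and 233 CPM in control, a ratio of 2.60 (1.94 to 3.58), and pigment epithelium-like cells had 334 CPM in STZ and 106 CPM in control, a ratio of 3.15 (1.64 to 6.75) on 10 control UMIs. The vascular classes had the highest Rbm3 levels of the control library and the smallest ratios. Pericyte or smooth muscle-like cells had 575 CPM in STZ and 305 CPM in control, a ratio of 1.89 (1.51 to 2.36), and endothelial-like cells had 485 CPM in STZ and 305 CPM in control, a ratio of 1.59 (1.26 to 2.03). With cells thinned to 1000 UMIs the log2 ratio in endothelial-like cells was 0.43 instead of 0.67, under 1.5-fold.

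The order of the classes by Cirbp was nearly the same in the 2 libraries. In STZ it ran amacrine-like, rod bipolar-like, rod-like, cone bipolar-like, Müller glia-like, cone-like, pericyte or smooth muscle-like, endothelial-like and pigment epithelium-like cells. Rod-like and rod bipolar-like cells, and endothelial-like and pigment epithelium-like cells, stood in the opposite order in control. Of the neighbours in that order, the intervals do not overlap between rod bipolar-like and rod-like and between cone bipolar-like and Müller glia-like cells in STZ, nor between cone bipolar-like and Müller glia-like and between Müller glia-like and cone-like cells in control. The order by Rbm3 was not shared. Amacrine-like cells were highest and Müller glia-like cells lowest in STZ (607 and 321 CPM), whereas pericyte or smooth muscle-like cells were highest and rod bipolar-like cells lowest in control (305 and 104 CPM). Among neighbours in the Rbm3 order, the intervals do not overlap between rod bipolar-like and cone-like cells in STZ, nor between Müller glia-like and cone bipolar-like cells in control. As for Cirbp, the lowest level in STZ, 321 CPM (305.5 to 338), lay above the highest in control, 305 CPM (251 to 367), with overlapping intervals.

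**Figure D2:**
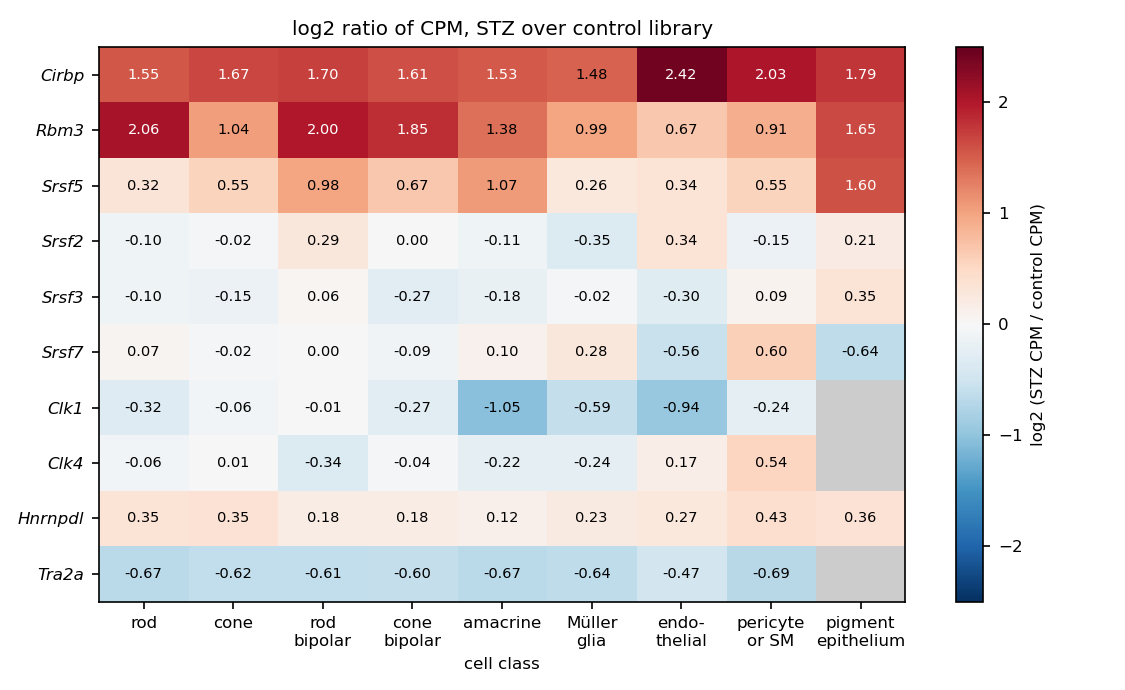
Log2 ratio of CPM, STZ over control, for the 10 genes (rows) in the 9 cell classes (columns), with red for higher and blue for lower in STZ. Grey marks a pair under the minimum of 10 CPM and 20 UMIs over both libraries, and SM stands for smooth muscle. Cirbp and Rbm3 are above 0 in every class, from 0.67 to 2.42, and Tra2a is below 0 in the 8 classes with enough UMIs.

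Among the SR protein genes, Srsf5 was higher in STZ in each of the 9 classes with an interval above 1, while Srsf2, Srsf3 and Srsf7 lay near a ratio of 1 in most. Srsf5, at chr12:80945504-80950507 on the plus strand, encodes a splicing enhancer protein whose messenger RNA is known to be induced by insulin in rat liver cells. In rod bipolar-like cells Srsf5 was at 379.8 CPM (359 to 401) in STZ and 193 CPM (179.6 to 207) in control, a ratio of 1.97 (1.80 to 2.16). Amacrine-like cells had 632 CPM in STZ and 301 CPM in control, a ratio of 2.10 (1.61 to 2.78), and cone bipolar-like cells had 506 CPM in STZ and 319 CPM in control, a ratio of 1.59 (1.48 to 1.71). Pigment epithelium-like cells had 257 CPM in STZ and 84.8 CPM in control, a ratio of 3.02 (1.46 to 7.25) on 8 control UMIs. These are the 4 classes in which Srsf5 passed 1.5-fold. With cells thinned to 1000 UMIs amacrine-like and cone bipolar-like cells no longer did, at log2 ratios of 0.43 and 0.49. Müller glia-like cells had the smallest ratio of the 9, 1.2 (1.14 to 1.26), with 572 CPM in STZ and 478 CPM in control. Rod-like, endothelial-like, pericyte or smooth muscle-like and cone-like cells lay between 1.25 and 1.47.

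Srsf2, at chr11:116849901-116853094 on the minus strand, encodes the SR protein also called SC35, a classical marker of nuclear speckles. Its ratios ran from 0.784 in Müller glia-like cells, with 183 CPM in STZ and 233 CPM in control, to 1.27 in endothelial-like cells. The Müller glia-like interval (0.722 to 0.852) lies below 1 and that of rod bipolar-like cells (1.14 to 1.31, with 501 CPM in STZ and 411 CPM in control) above 1, so this gene leaned in opposite directions in those classes. In both libraries rod bipolar-like cells had the highest Srsf2 level. Srsf3, at chr17:29032628-29043373 on the plus strand, encodes a small SR protein with roles in splicing and RNA export. Its ratios ran from 0.81 in endothelial-like to 1.27 in pigment epithelium-like cells, with intervals below 1 in cone bipolar-like cells (438 CPM in STZ and 528 CPM in control) and cone-like cells (365 CPM in STZ and 406 CPM in control). Rod-like cells had the most Srsf3 in both libraries, 494 CPM in STZ and 531 CPM in control. Srsf7, at chr17:80200080-80207307 on the minus strand, encodes an SR protein with a zinc knuckle. Its ratios ran from 0.643 in pigment epithelium-like cells (17 and 8 UMIs in STZ and control) to 1.52 in pericyte or smooth muscle-like cells (62 and 28 UMIs), and the interval included 1 in 8 of the 9 classes, including both of these. The call in pericyte or smooth muscle-like cells was lost with doublets kept and with means over cells, and that in pigment epithelium-like cells with scaling that left out mitochondrial and rod genes. The interval lay above 1 in Müller glia-like cells, at 85.2 CPM in STZ and 70.1 CPM in control, a ratio of 1.22 (1.06 to 1.39).

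Of the kinase genes, Clk1 leaned the other way, and Clk4 had an interval that included 1 in most classes. Clk1, at chr1:58410189-58424066 on the minus strand, had ratios of 0.482 to 0.991 in the 8 classes with enough UMIs. In amacrine-like cells it was at 141 CPM (117 to 168) in STZ and 292 CPM (223 to 375) in control, 2.07-fold lower (1.49 to 2.85). Endothelial-like cells had 189 CPM in STZ and 363 CPM in control, 1.92-fold lower (1.48 to 2.51), and Müller glia-like cells had 139 CPM in STZ and 209 CPM in control, 1.5-fold lower (1.37 to 1.65). Endothelial-like cells had the highest Clk1 level of the control library, and the 3 classes past 1.5-fold do not include any photoreceptor or bipolar class. The call in Müller glia-like cells, at a log2 ratio of -0.59, was lost in 5 alternative settings, with values of -0.31 to -0.57, and that in endothelial-like cells with thinned cells (-0.49 instead of -0.94). In rod bipolar-like cells the ratio was 0.991 (0.885 to 1.11) and in cone-like cells 0.959 (0.862 to 1.07). Clk4, its close relative at chr11:51261730-51281766 on the plus strand, was highest in rod bipolar-like cells in both libraries, with 120 CPM (108 to 132) in STZ and 151 CPM (139.5 to 164) in control. Those cells and Müller glia-like cells had the intervals below 1, at ratios of 0.792 and 0.846. Pericyte or smooth muscle-like cells had 63.5 CPM in STZ and 43.6 CPM in control, a ratio of 1.46 (0.782 to 2.83) on 34 and 16 UMIs, and endothelial-like cells had a ratio of 1.12 (0.643 to 2.03). No class passed 1.5-fold among the 8 with enough UMIs.

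Summed over each class that could be measured, Tra2a was lower in STZ by a similar factor, and Hnrnpdl was slightly higher. Tra2a, at chr6:49243924-49264033 on the minus strand, was at 129 CPM (111 to 148) in STZ and 204 CPM (181 to 229.9) in control in rod-like cells, 1.59-fold lower (1.32 to 1.92). Cone bipolar-like cells had 205 CPM in STZ and 310.0 CPM in control, 1.51-fold lower (1.39 to 1.66), and Müller glia-like cells had 157 CPM in STZ and 245 CPM in control, 1.56-fold lower (1.43 to 1.70). The 8 ratios ran from 0.622 in pericyte or smooth muscle-like to 0.724 in endothelial-like cells, where the interval (0.506 to 1.04) includes 1. Pigment epithelium-like cells held 18 Tra2a UMIs in STZ and 1 in control, a ratio of 5.44 with an interval of 0.860 to 227, and were left out for the low count. The 7 classes past 1.5-fold lie just beyond it, and over 12 alternative settings 2 to 7 classes were past it. With cells thinned to 1000 UMIs the log2 ratio in rod bipolar-like cells was -0.29 instead of -0.61. Clusters within a class differed more, and those of cone bipolar-like cells ran from 0.536 (0.438 to 0.655) to 0.868 (0.675 to 1.12). Rod-like cluster 5 had 54.5 CPM in STZ and 106 CPM in control, a ratio of 0.516. Rod-like cluster 6 had 269 CPM in STZ and 293 CPM in control, a ratio of 0.916. Cluster 5 held 600 STZ and 254 control cells, and cluster 6 held 410 and 372. The summed rod-like ratio mixes these clusters in different shares per library, and the part of that mix was not tested. The order of the classes by Tra2a was the same in both libraries, from amacrine-like (227 CPM in STZ and 360 CPM in control) down to pigment epithelium-like cells. Hnrnpdl, at chr5:100033577-100039664 on the minus strand, had ratios of 1.09 in amacrine-like to 1.34 in pericyte or smooth muscle-like cells, above 1 in all 9 classes and with an interval above 1 in 5. In Müller glia-like cells, where it was highest in both libraries, it was at 301 CPM (286 to 317) in STZ and 257 CPM (245 to 269.6) in control. It passed 1.5-fold in none of the 9. In 10 of 12 alternative settings every class was above a ratio of 1, but with cells thinned to 1000 UMIs the log2 ratio in pericyte or smooth muscle-like cells was -0.66, a turn of direction.

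Some of these genes overlap others on the opposite strand, and whether the counting used strand is not given in the sources used here. Rbm3os, antisense to Rbm3, had 13 UMIs in each library, against 9663 Rbm3 UMIs in STZ and 3266 in control. Srsf2 overlaps Mettl23, with 1241 UMIs in STZ and 1368 in control, and Mfsd11, with 443 and 351, so the Srsf2 values are less certain. BC049762, antisense to Clk4, had 12 UMIs in STZ and 7 in control.

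Of the 90 pairs of a gene and a class, 87 had enough UMIs to be counted, and 23 were at least 1.5-fold higher and 11 at least 1.5-fold lower in STZ. Over all genes and classes, 9.88% of 64606 such pairs were higher and 8.53% lower. In rod-like cells 2 of the 10 genes were higher and 1 lower, where 9.02% of all genes were higher and 8.99% lower. In cone-like cells 2 were higher and 1 lower, against 5.09% and 3.04% of all genes, and in rod bipolar-like cells 3 were higher and 1 lower, against 5.05% and 5.92%. Cone bipolar-like cells had 3 higher and 1 lower, against 4.24% and 4.48%, and amacrine-like cells 3 higher and 2 lower, against 16% and 14.1%. In Müller glia-like cells 2 were higher and 2 lower, against 5.01% and 2.92%. In endothelial-like cells 2 were higher and 1 lower, against 20.7% and 17.5%, and in pericyte or smooth muscle-like cells 3 and 1, against 12.7% and 11%. Of the 7 genes counted in pigment epithelium-like cells 3 were higher and 1 lower, against 23.5% and 18.5%. Nothing is read from these shares, since the ratios themselves had a part in choosing the genes. Cirbp and Rbm3 account for 18 of the 23 higher pairs, Srsf5 for 4 and Srsf7 for 1, and Tra2a accounts for 7 of the 11 lower pairs, Clk1 for 3 and Srsf7 for 1.

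**Figure D3:**
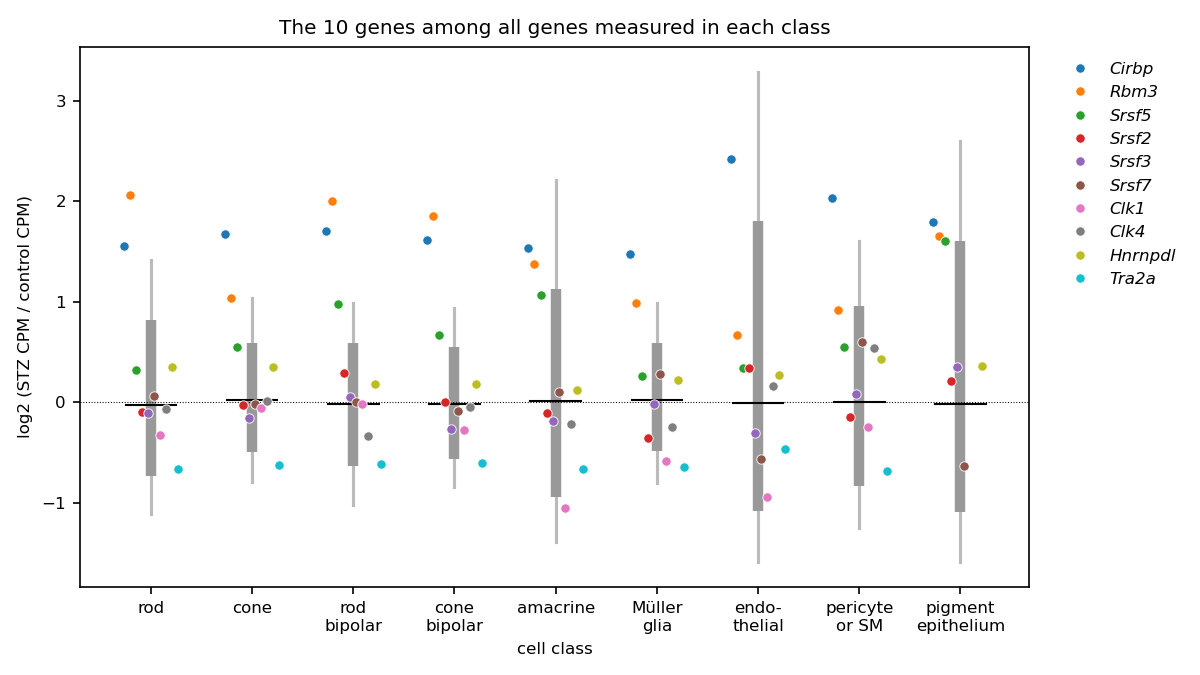
Log2 ratio of CPM, STZ over control (vertical axis), of the 10 genes (coloured points) among all genes measured in each class. Thin grey bars span percentiles 1 to 99 of all measured genes, thick bars percentiles 5 to 95, and black lines are medians. Cirbp lies above the thin bar in rod-like, cone-like, both bipolar, Müller glia-like and pericyte or smooth muscle-like cells, and SM stands for smooth muscle.

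Placed among all measured genes of a class by ratio, Rbm3 ranked 2 of 7917 in rod bipolar-like cells, 9 of 8887 in cone bipolar-like cells and 15 of 7606 in rod-like cells. Cirbp ranked 7, 13 and 51 there, and 19 of 8080 in cone-like, 20 of 8848 in Müller glia-like and 22 of 6230 in pericyte or smooth muscle-like cells. At the other end Tra2a ranked 8653 of 8848 in Müller glia-like cells and 8526 of 8887 in cone bipolar-like cells. In the classes with few cells the whole distribution was wider, and the same ratios stood out less. Cirbp ranked 160 of 7235 in amacrine-like and 188 of 6673 in endothelial-like cells, and Rbm3 ranked 1241 in endothelial-like cells.

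Within classes, Cirbp and Rbm3 were higher in STZ in all 19 clusters with at least 50 cells in each library, at ratios of 2.24 to 5.34 for Cirbp and 1.59 to 5.22 for Rbm3. Srsf5 was above 1 in 18 of the 19, Hnrnpdl in 17, Clk1 in 3 and Tra2a in 1. That 1 for Tra2a is the pigment epithelium-like cluster 16, with 18 UMIs in STZ and 1 in control. The other genes, Srsf2, Srsf3, Srsf7 and Clk4, were above 1 in 7 to 9, for Clk4 in cluster 20 on 6 STZ UMIs and 1 control UMI. The same count was not made over all genes. The rod-like clusters differed. In cluster 5 Rbm3 was at 503 CPM in STZ and 96.3 CPM in control, a ratio of 5.22 (4.00 to 6.93), and in cluster 6 at 324 CPM in STZ and 115 CPM in control, a ratio of 2.83 (2.16 to 3.74). Tra2a was 0.516 (0.354 to 0.749) in cluster 5 and 0.916 (0.734 to 1.14) in cluster 6, and Srsf5 was 1.80 (1.44 to 2.26) and 1.08 (0.890 to 1.30). Cluster 6 was the shallower of the pair, with 908 UMIs in its median STZ cell and 1365 in its median control cell, against 1281 and 2028 in cluster 5. The part of depth was not tested. Müller glia-like clusters differed for Srsf5, with 566 CPM in STZ and 369 CPM in control in cluster 3, a ratio of 1.54 (1.41 to 1.67), and 586 CPM in STZ and 579 CPM in control in cluster 4, a ratio of 1.01 (0.948 to 1.08). The smaller clusters had ratios of 0.875 (0.641 to 1.19) in cluster 15 and 3.11 (1.51 to 7.24) in cluster 20, on 9 control UMIs. Cluster 4 was deeper than cluster 3, with 6627 UMIs in its median STZ cell and 6775 in its median control cell, against 4972 and 5350. Cirbp was 3.24 (2.93 to 3.57) in cluster 3 and 2.5 (2.30 to 2.72) in cluster 4. Cluster 8, of 296 STZ and 307 control cells, took no name, with 5 rod bipolar markers raised and the cone bipolar markers Lhx3 and Vsx1 among its top genes, and gave 2.81 (2.53 to 3.13) for Cirbp, 3.5 (2.91 to 4.24) for Rbm3 and 0.601 (0.508 to 0.709) for Tra2a, within the range of the named classes for Cirbp and Rbm3.

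**Figure D4:**
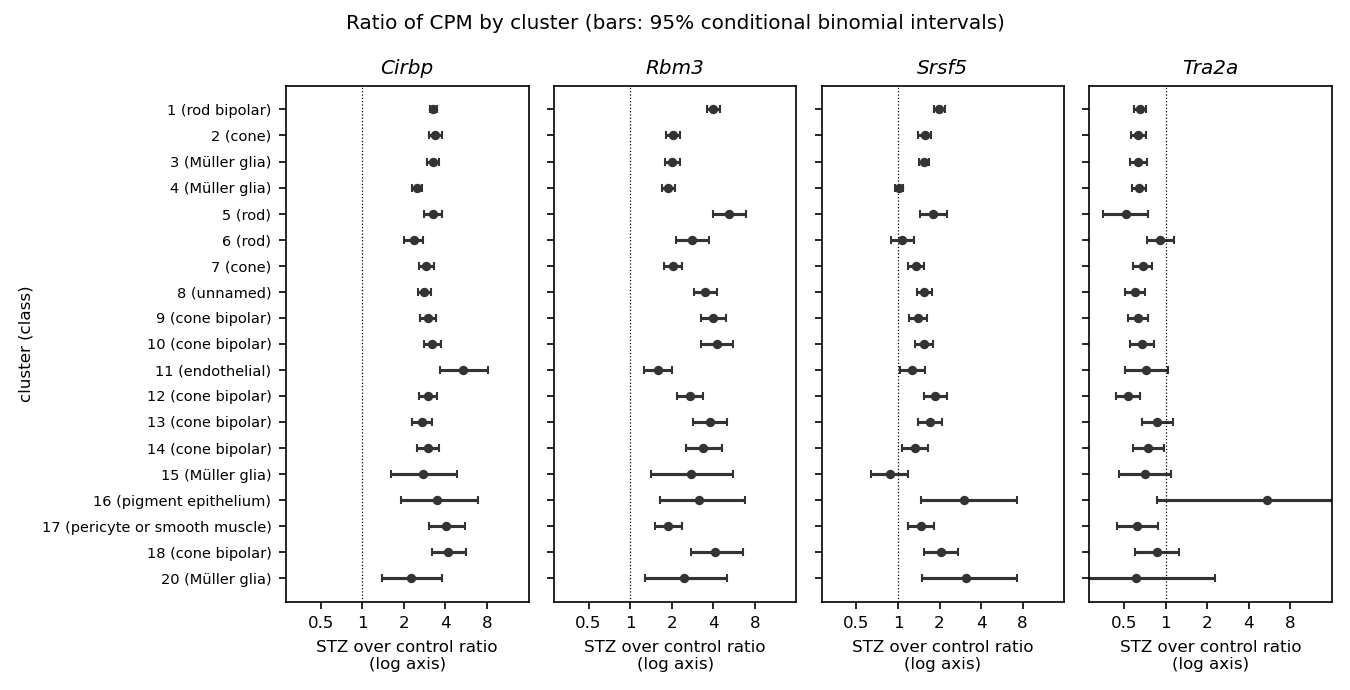
Ratio of CPM, STZ over control (log axis), of Cirbp, Rbm3, Srsf5 and Tra2a in the 19 clusters with at least 50 cells in each library, named by number and class. Bars are 95% conditional binomial intervals and the dotted line marks a ratio of 1. Cirbp and Rbm3 lie right of the line in all 19 clusters, and Tra2a lies left of it in 18. The exception for Tra2a, cluster 16, rests on 1 control UMI.

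Microglia-like cells, with 105 STZ and 42 control cells, were too few to be compared with the rest and are given apart. Cirbp was at 255 CPM (199 to 323) in STZ and 108 CPM (57.3 to 184) in control, below the named classes in STZ. Rbm3 was at 769.5 CPM (669 to 882) in STZ and 298 CPM (209 to 413) in control, a ratio of 2.58 (1.81 to 3.79). Srsf5 went the other way from the 9 classes, with 544 CPM in STZ and 770.4 CPM in control, a ratio of 0.706 (0.541 to 0.925). Tra2a, at 111 CPM in STZ and 257 CPM in control, had a ratio of 0.432 (0.253 to 0.738). In the unnamed cluster 0 the STZ cells had 834 CPM of Cirbp and 402 CPM of Rbm3, within the range of the named classes, and its 14 control cells held 3 and 1 UMIs of these genes.

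Ratios were also taken at equal depth. With each cell thinned to 2000 UMIs, Cirbp averaged 2.29 UMIs per cell in STZ and 0.707 in control in rod bipolar-like cells, a ratio of 3.23. In the 7 classes with enough such cells the ratios of Cirbp ran from 2.84 to 6.00 and those of Rbm3 from 1.90 to 4.26. The 6.00 was in endothelial-like cells, with only 0.125 Cirbp UMIs per control cell. Srsf5 ran from 1.17 to 1.89 and Tra2a from 0.608 to 0.724. In rod-like cells 204 of 1010 STZ and 272 of 626 control cells reached that depth. There Srsf2 had a ratio of 0.647 at equal depth against 0.934 from all UMIs, Clk4 one of 0.648 against 0.957 and Hnrnpdl one of 1.52 against 1.27. The rod-like clusters, which differ in their mix between the libraries, were pooled in these values. In pericyte or smooth muscle-like cells Srsf7 had a ratio of 1.94 at equal depth against 1.52, and Clk4 one of 2.36 against 1.46, at only 0.121 UMIs per cell in STZ and 0.0513 in control.

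Per cell, none of the other 9 genes was more than weakly correlated with Cirbp. The correlation was taken in cells thinned to 2000 UMIs, within each of 12 combinations of class and library with at least 100 such cells (124 to 1133 cells, 7780 in all), and summarised as the median r. Rbm3 had a median r of 0.0481 and Srsf5 one of 0.0463, which placed them 35 and 42 among 6225 genes. The gene at place 100, 1.61% of those genes, had a median r of 0.0397, and the nearest of the 10 outside, Srsf3, had 0.0239 at place 510. The other 6 lay between -0.0184 and 0.0168. For Rbm3 the median r was 0.0814 over the STZ combinations and -0.0263 over the control ones, and it was highest in STZ pericyte or smooth muscle-like cells at 0.223. With classes pooled, a setting chosen after seeing the data, none of the 9 was among the 100 highest in either library. The cells of a combination share a library, a depth and a composition, and in counts this sparse such values are no finding.

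The 10 genes with the highest median r outside the group were Rpl24 (0.0841), Cox8a, Pkm, Rpl35a, Sumo2, Eif1, Unc119, Tsc22d3, Fth1 and Mgarp (0.0566), which include ribosomal protein, respiratory chain and glycolysis genes. Between Cirbp and the mitochondrial share of a cell the median r was -0.0496. Among the 45 pairs of the 10 genes, 29 had a median r above 0, from -0.0294 for Srsf3 with Clk4 to 0.0585 for Clk1 with Clk4.

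**Figure D5:**
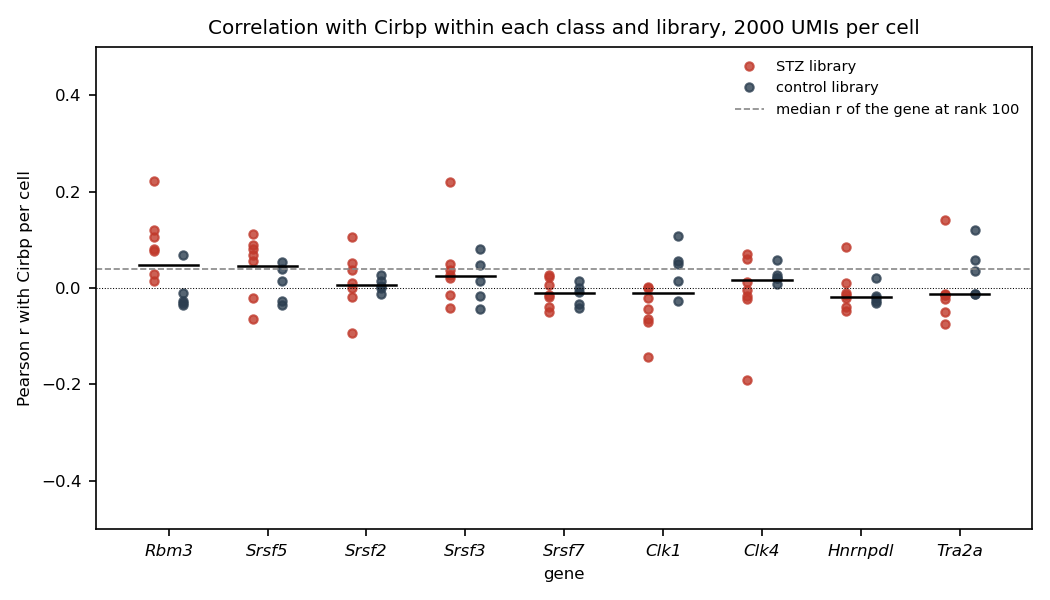
Pearson r with Cirbp per cell (vertical axis) of the other 9 genes, in cells thinned to 2000 UMIs. Each point is 1 combination of class and library, with STZ in red to the left of control in dark blue, black bars are medians over the 12 combinations, and the dashed line is the median r of the gene at place 100. Rbm3 and Srsf5 have medians of 0.0481 and 0.0463, and points of most genes lie on both sides of 0.

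Across the 18 levels of class and library, the genes whose log2 level was most like that of Cirbp were Tm2d1 (r = 0.784), Zfr (0.758), mt-Nd1 (0.756), Ndufb9 (0.753) and Cox5b (0.706), among 1062 genes with at least 50 CPM throughout. Of the 10 genes Hnrnpdl came closest (0.642, place 11), then Rbm3 (0.599, place 29) and Srsf5 (0.488, place 103). With each library centred on its own mean, Hnrnpdl had an r of 0.745 and Rbm3 one of -0.226, so Rbm3 was like Cirbp between the libraries but not in the order of the classes. Clk1, Clk4 and Tra2a fell below 50 CPM somewhere and were not placed. The levels share libraries and depths, and the values are descriptions.

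Wider lists of splicing genes were counted in the same way. Of the 11 SR protein genes, 7 of 92 measured pairs of a gene and a class were at least 1.5-fold higher (7.61%) and 6 lower (6.52%), against 9.88% and 8.53% over all genes and classes. Outside the 4 SR genes described above, 2 of 56 were higher and 5 lower. Srsf6, an SR protein close to Srsf5, had a median ratio of 0.685 and was below 1 in 9 of 9 classes, and Srsf4 had one of 0.837. In the RBM family, 19 of 206 pairs were higher (9.22%) and 12 lower (5.83%), and 9 of the 19 were Rbm3, which left 10 of 197 (5.08%) higher. Rbm28 had a median ratio of 0.713 and Rbm7 one of 1.38. In the list of Tra2 and SR-related genes 15 of 211 pairs were higher (7.11%) and 13 lower (6.16%), 7 of the 13 from Tra2a. Tra2b, its paralogue and partner on the same exons, had a median ratio of 1.21 with 1 class higher and none lower. Its ratios ran from 0.738 to 1.54 and were above 1 in 5 of 9 classes.

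The SR protein kinases held 7 higher (8.24%) and 12 lower (14.1%) of 85 pairs. Srpk1, which phosphorylates SR proteins in the cytoplasm, was at least 1.5-fold lower in 5 of 8 classes with a median ratio of 0.660, and Clk3 was below 1 in 7 of 7 with a median of 0.694. Without Clk1 and Clk4, 9 of 69 pairs were lower, 13%, against 8.53% of all genes and classes. The hnRNP genes held 8 higher (3.6%) and 9 lower (4.05%) of 222 pairs, and Hnrnpa2b1, the hnRNP protein with the lowest median ratio at 0.726, was below 1 in 9 of 9 classes. Core spliceosome genes held 22 higher (6.81%) and 8 lower (2.48%) of 323 pairs, and neural splicing regulators 11 higher (8.73%) and 10 lower (7.94%) of 126. The hnRNP list had log2 medians of -0.13 to 0.12 over the classes, and the SR protein list -0.11 to 0.06.

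Lists outside splicing were counted too. Of 19 heat shock genes, 52 of 146 pairs were at least 1.5-fold lower in STZ (35.6%) and 6 higher, and the list had a log2 median below 0 in all 9 classes. Hsph1, a partner of the Hsp70 chaperones, had a median ratio of 0.362 and was lower in 7 of 7 classes, Chordc1 was lower in 8 of 8 with a median of 0.499, and Hspa8 in 5 of 9 with one of 0.622. In cone-like cells the summed level of the list was 5350 CPM in STZ and 7583 CPM in control, and in rod bipolar-like cells 5195 CPM in STZ and 6810 CPM in control. Clock genes held 26 higher and 5 lower of 109 pairs, 18 of the 26 in endothelial-like (10 of 12 genes) and pericyte or smooth muscle-like cells (8 of 11), where 20.7% and 12.7% of all genes were higher. Cry2 and Per1, both repressors of the clock, had median ratios of 1.48 and 1.35. The mitochondrially encoded genes held 19 higher and 4 lower of 117 pairs, the 19 in pigment epithelium-like and endothelial-like cells, where 23.5% and 20.7% of all genes were higher. Their summed level was higher in STZ in every class but amacrine-like cells, which had 92892 CPM in STZ and 92946 CPM in control. It was 81875 CPM in STZ and 42319 CPM in control in pigment epithelium-like cells. Rod-like cells had 112005 CPM in STZ and 89947 CPM in control, and rod bipolar-like cells 151491 CPM in STZ and 127486 CPM in control. Immediate-early genes held 20 higher and 9 lower of 113 pairs, and nuclear noncoding RNAs 7 higher and 2 lower of 35. Of these, 8 of the 20 and 3 of the 7 were in pigment epithelium-like cells, where 23.5% of all genes were higher. The part of these lists in the ratios of Cirbp and Rbm3 was not tested.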

How the data were processed

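The authors deposited whole-number UMI counts of 19562 cells over 17087 genes. Per the submitters' processing notes, Cell Ranger 3.0.1, Seurat 3.0 and mm10 were used, with settings not given in the sources used here. Per the labels' protocols the libraries were 10x Chromium 3′ version 3. The ending of a cell name gives its library, and 0 columns were unused. Counts ran from 499 to 10748 UMIs per cell, with at most 2999 genes.

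A minimum of 200 genes and a maximum of 20% mitochondrial UMIs were set per cell, and the second removed 28.5% of STZ and 25.7% of control cells. Doublets were scored with Scrublet in scanpy 1.11.5. In control its automatic threshold removed 171 cells (3.21%). In STZ it called 0.0564%, so the top 628 scores (7.09%) were removed instead, so that the 2 libraries had different rules. For clustering, 2000 variable genes were taken without the 10 genes, the splicing lists and mitochondrial genes, with counts scaled to 10000, log values scaled within library, 30 components, 15 neighbours and Leiden resolution 1.0 (26 clusters). The naming rule for markers was set after clusters of these data had been seen.

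UMIs were summed per class and library and given as CPM with exact Poisson intervals, and ratios with conditional binomial intervals, at 95%. Intervals take UMIs as independent. A pair was counted at 10 CPM and 20 UMIs over both libraries and called at 1.5-fold. The scripts for ratios and correlations were tested on simulated data. Named genes besides the 10 are up to 4 per list with the largest median log2 ratio in either direction among genes measured in at least 5 classes, the 10 most correlated with Cirbp, and the 5 with the most similar levels. The genes, the lists and the rules were chosen with earlier results of these data known, and the octamer was searched after the promoter table had been seen.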

Additional observations from a re-analysis of the deposited data

How the results depend on the processing

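The direction of Cirbp, Rbm3 and Srsf5 was above 0 in every class that each of 12 alternative settings could give, and the median log2 ratio of Cirbp lay between 1.61 and 1.75. The settings were all deposited cells, a filter of 500 genes and 10% mitochondrial UMIs, doublets kept, cells thinned to 1000 UMIs, means over cells, scaling without mitochondrial and rod genes, centring on the median gene, resolutions 0.5 and 2.0, no filter on low genes, leaving out barcodes in both libraries, and cells of 1500 to 4000 UMIs. The count of 11 lower pairs was 3 under the stricter filter, which left 7 classes, 7 with the scaling without mitochondrial and rod genes, and 4 in cells of 1500 to 4000 UMIs, which left 5 classes. The count of 23 higher pairs was 12 in those 5 classes. Tra2a, near the threshold, was called lower in 2 to 7 classes over the settings. The count of 2 genes among the 100 most correlated with Cirbp was 0 at 1000 UMIs per cell, 1 with the mean over combinations, 0 under the stricter filter, 1 in control alone (Clk1 at place 89, with Rbm3 at 5552 and Srsf5 at 1551), and 0 in STZ and 0 in control with classes pooled. Apart from the loss of classes, the cause of these moves was not tested. Of 1010 single values under alternatives, 946 stayed within the counting interval, 64 moved and 0 reversed among the 34 called pairs. Low UMI totals widen the intervals in pigment epithelium-like and endothelial-like cells, and the amacrine-like class rests on 55 control cells. No paired analysis was possible because each group is 1 library.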
